A study of Mus musculus with 19 samples.

Results

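The T cell receptor complex and its coreceptors were followed through 10 genes: the constant segments of the receptor chains (Trac, Trbc1, Trbc2), the CD3 and zeta subunits (Cd3d, Cd3e, Cd3g, Cd247), the CD8 coreceptor chains (Cd8a, Cd8b1) and Cd5. The genes were chosen by name, with earlier results of these data known. Each was found among the 53656 genes counted in each library. All 10 passed the filter on low counts in every comparison. Levels are given in CPM, counts per 1000000 after scaling between libraries, and levels are compared between genes only as CPM per kilobase of exon (CPM per kb).

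The alpha and beta chains of the receptor recognise a peptide held by an MHC molecule, and each chain joins a variable part to a constant segment. The chains themselves carry no signalling motif, so they are assembled with the CD3 delta, epsilon and gamma chains and the zeta chain encoded by Cd247, whose cytoplasmic tails are phosphorylated when the receptor is engaged. CD8, a dimer of alpha and beta chains or of alpha chains alone, binds MHC class I and brings the kinase LCK to the receptor, and CD5 is a surface glycoprotein that dampens receptor signals.

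RNA was sequenced from 19 libraries of CD8 T cells of C57BL/6 mice in 7 groups. All cells carried a transgenic receptor: SV40-I, specific for an epitope of SV40 large T antigen, or OT-I, specific for an ovalbumin epitope. Groups of 3 libraries each held naive SV40-I cells sorted as CD8/CD44low, OT-I cells of days 20 to 21 sorted as CD8/Ly5.1, SV40-I cells of days 20 to 21 sorted as CD8/Thy1.1, and SV40-I cells of days 8 to 9 sorted as CD8+/Thy1.1+ and high or low for PD1, LAG3 and CD39, here marker-high and marker-low. Groups of 2 libraries each held SV40-I cells that were stimulated with antibodies to CD3 and CD28, given a retrovirus coding for TOX-GFP or for GFP alone, expanded with IL-2 and sorted as CD8+/GFP+. The titles place the cells of days 8 to 9 and 20 to 21 in malignant liver lesions, whereas the source label of every library is mouse splenocytes. The tables of the marker-high libraries carry WT in their column headings and those of the marker-low libraries KO, while the labels give no genotype. Gate and genotype thus cannot be told apart in any comparison that uses these groups. No naive OT-I group was among the libraries, so the transgene and the state of the cells cannot be told apart in any comparison of OT-I with SV40-I cells. All 7 groups were sorted on CD8, the product of 2 of the genes described. The labels do not say that replicates came from separate animals or cultures, so the p-values may in part reflect technical spread.

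Library totals ran from 37006508 to 54195918 counts, and every member was counted in every library. Transcripts of other cells differed between groups. The summed level of 6 macrophage markers was 4111 to 5731 CPM in marker-high, 769.5 to 8953 CPM in marker-low and 102 to 278 CPM in naive libraries, with Lyz2 and Csf1r the most abundant. Summed CPM of 8 hepatocyte markers reached 762 and 1392 in OT-I replicates 2 and 3 and 1251 in SV40-I replicate 2 of days 20 to 21, and stayed at or under 39.9 in the other libraries. The 81 cytosolic ribosomal protein genes, all with short transcripts, took 1.171% to 1.499% of counts at days 20 to 21 in SV40-I cells and 2.35% to 5.41% in naive cells. Marker-low replicate 2 stood apart, with the highest macrophage sum of all libraries and a ribosomal protein share of 1.41% against 3.29% and 3.23% in the other marker-low libraries. Erythroid markers (5 genes) summed to 1330 to 3427 CPM in OT-I and 107 to 861 CPM in SV40-I libraries of days 20 to 21. Sums of 3 NK cell markers were 324 to 702 and 131 to 271 CPM in the same groups. The highest of these sums came almost wholly from Klrb1c. Over all libraries Klrb1c reached 701 CPM, Ncr1 at most 25.5 CPM and Klra8 at most 0.9 CPM. OT-I replicate 1, low in hepatocyte markers, held 1871 CPM of erythroid and 702 CPM of NK cell markers. The bearing of these sums on the results was not tested. Cd4, which CD8 T cells lack, was at most 19.95 CPM in any library.

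Trbc1 and Trbc2 encode the alternative constant segments of the beta chain, and a beta chain uses either the former or the latter. Their sequences decide how far their counts can be told apart. In GENCODE M21 on GRCm38 the coding parts are 518 bases long and differ at 23 bases, an identity of 95.6%. Exon 1 holds 375 of these bases and 1 of the differences, and the 143 bases after exon 1 hold 22. Those spliced coding ends are shown 5′ to 3′ on the plus strand, Trbc1 from the exons within chr6:41539114-41539662 and Trbc2 from those within chr6:41547610-41548178, with the bases that differ in capitals.
Trbc1: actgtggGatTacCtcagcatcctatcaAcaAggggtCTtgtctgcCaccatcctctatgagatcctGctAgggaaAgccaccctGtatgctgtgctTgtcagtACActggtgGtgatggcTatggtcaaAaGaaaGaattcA
Trbc2: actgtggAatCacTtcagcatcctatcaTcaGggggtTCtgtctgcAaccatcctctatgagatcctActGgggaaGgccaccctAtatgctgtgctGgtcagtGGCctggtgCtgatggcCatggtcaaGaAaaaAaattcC
Of all 50-base windows of the transcripts, the length of a read in these libraries, 41.1% of Trbc1 and 44% of Trbc2 windows also occur in the other gene. The headers of the count tables show no option for reads that map to several places, so the counts of each of the pair are uncertain. Reads of a transgenic chain that carries a constant segment would be counted with that segment.

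**Figure D1:**
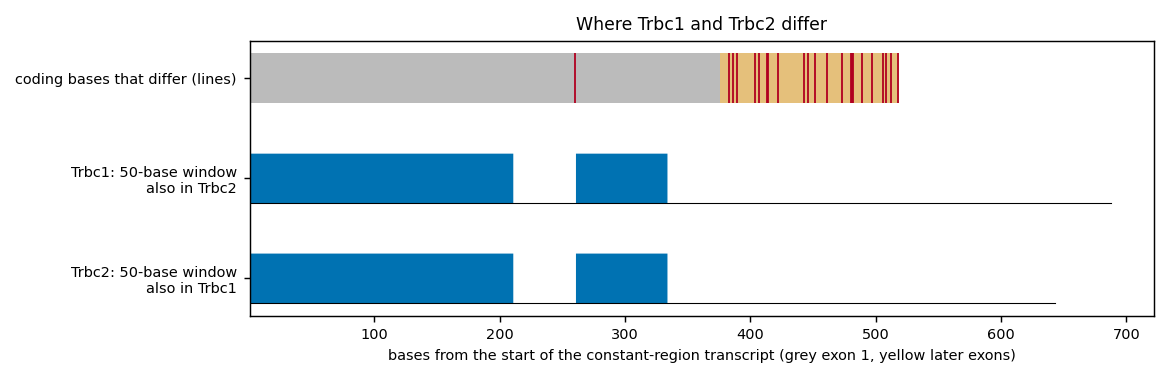
Map of the Trbc1 and Trbc2 transcripts, in bases from the start of the constant coding part. Lines in the top bar mark the 23 coding bases that differ (grey, exon 1; yellow, later exons), and blue blocks mark where a 50-base window starting at that base also occurs in the other gene; the shared windows lie mostly in exon 1.

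Trac (chromosome 14, 54220521 to 54224206, plus strand), the constant segment of the alpha chain, stood highest in SV40-I cells of days 20 to 21, at 7779, 8674 and 9535 CPM. Naive libraries held 3278, 6086 and 4780.3 CPM, marker-high libraries 4180.4, 4776 and 4874 CPM and marker-low libraries 6371, 2953 and 6195 CPM. OT-I libraries stood at 1515, 1379 and 1460.0 CPM. Every OT-I library was thus below every SV40-I library taken directly from mice. The cultured libraries were lower again, at 738 and 1049 CPM with GFP and 628 and 851 CPM with TOX-GFP, and these overlapped. In the order of means, the SV40-I cells of days 20 to 21 stood clear of the rest, while the marker-low, naive and marker-high groups overlapped each other.

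Trbc2 (chromosome 6, 41546730 to 41548352, plus strand) stood at 5098, 6188 and 5912 CPM in SV40-I cells of days 20 to 21 and at 656, 552 and 642 CPM in OT-I cells, the lowest of the 7 groups. Naive libraries spread widely, at 2687, 8599 and 3717 CPM. Naive replicate 2, the highest, also had the highest share of ribosomal protein counts, 5.41%, and whether the one bears on the other was not tested. Marker-low libraries held 6640.1, 2014 and 5261 CPM and marker-high libraries 3438, 3855 and 3499 CPM. Trbc1 (chromosome 6, 41538218 to 41539881, plus strand) was lower than Trbc2 in every library, from 891, 1028 and 1036 CPM in SV40-I cells of days 20 to 21 to 380.1, 349.9 and 369 CPM in OT-I cells and 216 and 199 CPM in cultured TOX-GFP cells.

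The balance between the beta segments set OT-I cells apart. Trbc1 made up 36.7, 38.8 and 36.5% of the summed Trbc1 and Trbc2 counts in the OT-I libraries, and 14.9, 14.2 and 14.9% in the SV40-I libraries of days 20 to 21. The difference of the means, 14.7 ± 0.376% against 37.3 ± 1.28% (SD, n = 3 each), was -22.7 percentage points with a two-sided exact permutation p of 0.1, the smallest that 3 against 3 libraries can give. Every other library was at or under 21.4%, with 16.0 ± 4.92% in naive cells, 18.3 ± 2.86% in the marker-high group and 16.8 ± 0.693% in the marker-low group (SD, n = 3 each). Since the windows shared between the genes lie mostly in exon 1, these shares rest in part on how such reads were handled. So do the levels of the beta segments per length and the ratio of Trac to their sum. Per length, Trac stood at 1.13 ± 0.0355 of the summed beta segments in OT-I cells, 0.966 ± 0.0641 in SV40-I cells of days 20 to 21, 0.669 ± 0.180 in naive cells and 0.307 ± 0.0362 in cultured GFP cells (mean ± SD of the CPM per kb ratio, n = 3, 3, 3 and 2).

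**Figure D2:**
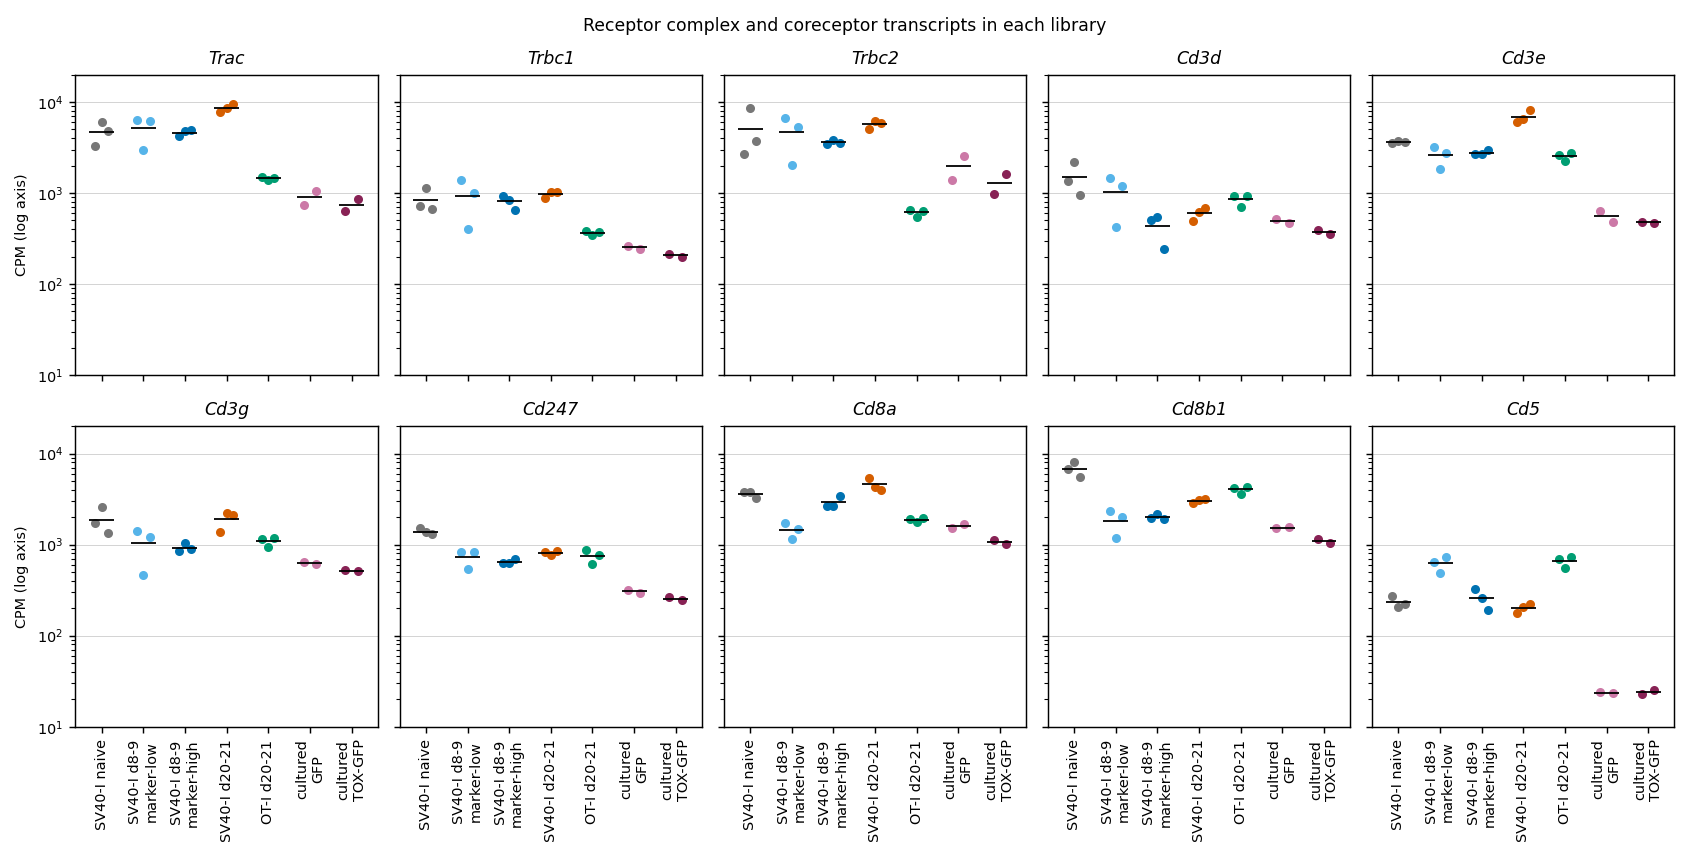
CPM (log axis) of each of the 10 genes in each library, by group; points are libraries and lines are group means (n = 3, and 2 in the cultured groups). Trac, Cd3e and Cd8a are higher in every SV40-I library of days 20 to 21 than in any library of another group. Trbc2 of those cells overlaps naive and marker-low cells. Cd5 is high in marker-low and OT-I cells, and the cultured groups are low in most genes.

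The CD3 genes lie together on chromosome 9 within 40056 bases: Cd3g (44969572 to 44980431, minus strand), Cd3d (44981786 to 44987339, plus strand) and Cd3e (44998740 to 45009627, minus strand). The starts of Cd3g and Cd3d face away from each other at a distance of 1355 bases. Their promoters are shown because the levels of the neighbours did not move alike. Each run holds 250 bases before to 50 after the start from RefSeq on GRCm38.p6, 5′ to 3′ on the strand of the gene, with capitals for matches on either strand to CTTTGA (a motif of TCF/LEF factors), TGTGGT (RUNX) and GGAAG (ETS); no matches overlapped in these runs. They span chr9:44981536-44981835 (plus strand) for Cd3d, chr9:45009562-45009861 (minus strand) for Cd3e and chr9:44980382-44980681 (minus strand) for Cd3g.
Cd3d: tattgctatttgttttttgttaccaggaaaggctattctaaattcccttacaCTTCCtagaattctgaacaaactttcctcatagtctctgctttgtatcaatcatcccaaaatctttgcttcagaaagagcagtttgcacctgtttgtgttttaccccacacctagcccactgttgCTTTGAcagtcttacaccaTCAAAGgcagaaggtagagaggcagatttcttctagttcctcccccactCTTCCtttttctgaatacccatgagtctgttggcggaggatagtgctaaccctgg
Cd3e: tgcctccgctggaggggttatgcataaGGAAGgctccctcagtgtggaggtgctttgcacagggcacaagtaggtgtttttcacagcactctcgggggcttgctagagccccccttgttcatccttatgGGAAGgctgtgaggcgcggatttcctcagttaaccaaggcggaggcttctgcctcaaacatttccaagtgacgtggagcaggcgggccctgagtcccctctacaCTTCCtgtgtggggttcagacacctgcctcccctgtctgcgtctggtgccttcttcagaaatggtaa
Cd3g: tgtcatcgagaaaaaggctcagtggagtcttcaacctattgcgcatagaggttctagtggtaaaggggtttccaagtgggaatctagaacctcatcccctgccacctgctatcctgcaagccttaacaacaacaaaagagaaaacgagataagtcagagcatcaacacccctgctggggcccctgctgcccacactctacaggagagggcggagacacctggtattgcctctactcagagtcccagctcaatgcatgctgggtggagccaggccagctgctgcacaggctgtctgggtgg
Cd3d held 2 matches to CTTTGA and 2 to GGAAG, Cd3e held 3 to GGAAG, and Cd3g held none of the 3 motifs. Of 32851 mouse promoters of that length, 16% held CTTTGA, 16.8% TGTGGT and 71.4% GGAAG. Of the 10 genes, 6 had a promoter in the RefSeq table, of which 2 held CTTTGA, 0 held TGTGGT and 5 held GGAAG. A match describes letters in a window and is not a bound site.

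Cd3e, the epsilon chain that pairs with both delta and gamma, stood at 6055, 6500.1 and 8174 CPM in SV40-I cells of days 20 to 21 and at 3537, 3756 and 3621 CPM in naive cells. OT-I libraries held 2619.6, 2234 and 2744 CPM, marker-high libraries 2653, 2659 and 2988 CPM and marker-low libraries 3232, 1826 and 2758 CPM. The SV40-I libraries of days 20 to 21 were all above every other library, and the OT-I, marker-high and marker-low groups overlapped their neighbours in the order. Cd3d, the delta chain, had another order: 1346, 2199 and 953 CPM in naive, 1466, 423 and 1180.0 CPM in marker-low, 937, 696 and 931 CPM in OT-I, 494, 616 and 679.8 CPM in SV40-I cells of days 20 to 21 and 508, 550.5 and 242 CPM in marker-high cells. The SV40-I cells of days 20 to 21 thus had the highest Cd3e and lay below every naive and OT-I library in Cd3d. Cd3g, the gamma chain, stood at 1376, 2235 and 2101 CPM in those cells against 1716, 2590.2 and 1334 CPM in naive and 1164, 941 and 1189 CPM in OT-I libraries, so that the first groups overlapped. Exons of Cd3e overlap those of a clone-named locus on the plus strand, and counting used no strand option.

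Per kilobase of exon, the ratio of Cd3e to Cd3d was 5.46, 4.69 and 5.35 in SV40-I libraries of days 20 to 21 and 2.32, 2.15 and 5.50 in marker-high libraries. It was 1.17, 0.760 and 1.69 in naive, 0.981, 1.92 and 1.04 in marker-low and 1.24, 1.43 and 1.31 in OT-I libraries. Values in the former groups all lay above those in the latter. The ratio was chosen after the levels had been seen and has no test. The lowest Cd3d of the marker-high and of the marker-low group fell in the library with the lowest ribosomal protein share of its group (1.31% in marker-high replicate 3 and 1.41% in marker-low replicate 2), and the part of that share in the ratio was not tested.

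Cd247 (chromosome 1, 165788681 to 165877277, plus strand) encodes the zeta chain, which carries most of the signalling motifs of the complex. Naive libraries held 1509, 1371 and 1294 CPM and lay above all others. SV40-I libraries of days 20 to 21 held 824, 762 and 850.2 CPM, OT-I libraries 876, 618 and 776 CPM, marker-low libraries 822, 546 and 823 CPM and marker-high libraries 621, 632 and 699 CPM, and neighbours in this order overlapped. Exons of Cd247 overlap those of Pou2f1 on the minus strand and of a clone-named locus on the plus strand. These counts thus depend on how reads in the overlap were treated.

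Cd8a (chromosome 6, 71373427 to 71379173, plus strand), the alpha chain of the coreceptor, stood at 5440.5, 4311 and 3966 CPM in SV40-I cells of days 20 to 21, 3783, 3829 and 3258 CPM in naive and 2687, 2669.5 and 3456 CPM in marker-high cells. Marker-low libraries held 1725, 1159 and 1495 CPM and OT-I libraries 1912, 1784 and 1958 CPM. Marker-low and OT-I libraries thus lay below all other libraries taken directly from mice. Cd8b1 (chromosome 6, 71322788 to 71337494, plus strand), the beta chain, was highest in naive cells, at 6714, 8119 and 5576 CPM, followed without overlap by OT-I cells at 4209, 3572 and 4324 CPM and SV40-I cells of days 20 to 21 at 2881, 3102 and 3147 CPM. Marker-high libraries, at 1947, 2173 and 1933 CPM, and marker-low libraries, at 2327, 1180.0 and 1991 CPM, overlapped each other.

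Of the summed CPM per kb of Cd8a and Cd8b1, Cd8b1 took 81.3, 83.9 and 80.8% in naive and 84.4, 83.1 and 84.4% in OT-I libraries. Marker-low libraries stood at 76.8, 71.4 and 76.6%, marker-high libraries at 64.0, 66.6 and 57.8% and SV40-I libraries of days 20 to 21 at 56.5, 63.8 and 66.0%. Every marker-high and every SV40-I library of days 20 to 21 lay below every other library. Marker-high and marker-low cells differed by -12.1 percentage points, 62.8 ± 4.51% against 74.9 ± 3.05% (SD, n = 3 each), with a two-sided exact permutation p of 0.1, the smallest possible. The cultured libraries stood at 71.0 and 69.2% with GFP and 71.5 and 71.5% with TOX-GFP.

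**Figure D3:**
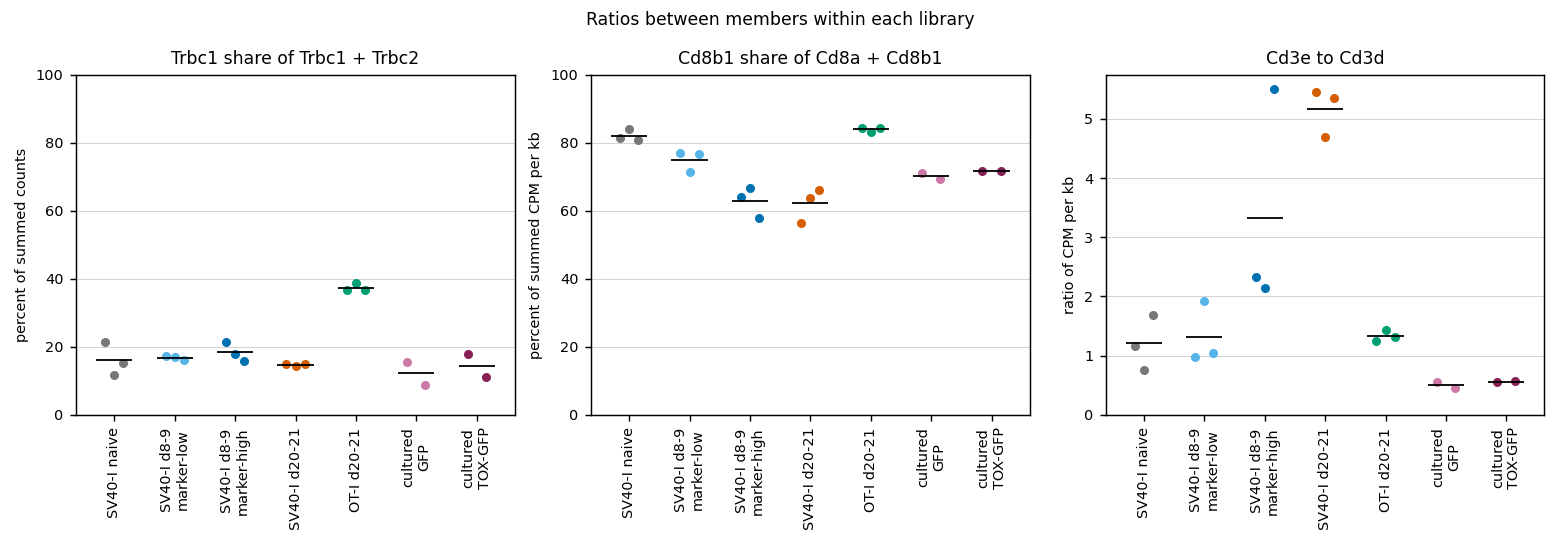
Ratios within each library: Trbc1 as a percentage of summed Trbc1 and Trbc2 counts, Cd8b1 as a percentage of summed Cd8a and Cd8b1 CPM per kb, and Cd3e over Cd3d in CPM per kb. Points are libraries and lines group means; the OT-I libraries stand at 36.5% to 38.8% in the left panel, and the marker-high and SV40-I day 20 to 21 libraries are lowest in the middle and highest in the right panel.

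Cd5 (chromosome 19, 10718143 to 10738974, minus strand) had an order of its own. OT-I libraries held 701, 558 and 734 CPM and marker-low libraries 646, 493 and 736 CPM. Marker-high libraries held 328, 257 and 191 CPM, naive libraries 276, 208 and 220.5 CPM and SV40-I libraries of days 20 to 21 179, 208 and 222 CPM. The OT-I and marker-low groups overlapped each other and lay above all others, and the remaining groups from mice overlapped. Cultured libraries held 23.9 and 23.4 CPM with GFP and 22.9 and 25.4 CPM with TOX-GFP.

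Per length, the receptor segments led. Trbc2 and Trac held 7227 ± 4564 and 5043 ± 1503 CPM per kb in naive cells (SD, n = 3), ahead of Cd8b1 at 4587 ± 859. In SV40-I cells of days 20 to 21 Trac stood at 9265 ± 939 CPM per kb and the next gene outside the receptor segments, Cd8b1, at 2052 ± 95.8. In OT-I cells the order began with Cd8b1, at 2721 ± 273 CPM per kb, and Trac followed at 1552 ± 73.0. Cd247 and Cd5 took the last 2 places in every group. Cd5 stood above Cd247 in OT-I cells, at 321 ± 45.2 against 142 ± 24.4 CPM per kb, and in marker-low cells, at 302 ± 59.5 against 137 ± 30.0. In marker-high cells the genes stood at 125 ± 33.1 and 122 ± 7.88 CPM per kb, a difference within the spread between libraries.

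At days 20 to 21, SV40-I cells were compared with OT-I cells, which carry another receptor. In SV40-I cells, 5 of the 10 genes were higher and 1 lower by edgeR's quasi-likelihood test with Benjamini-Hochberg adjustment over all 16404 genes; of all genes 9.02% were called in either direction, 4.91% higher and 4.11% lower. Trbc2 and Trac differed most. Trbc2 was 9.27-fold higher, a log2 difference of 3.21 ± 0.44 (SE, adjusted p = 0.000576). Trac was 5.94-fold higher, 2.57 ± 0.27 (SE, adjusted p = 8.75e-05) on the log2 scale. For Trbc1 the log2 difference was 1.42 ± 0.34 (SE, adjusted p = 0.0194). Cd3e was 2.71-fold higher, 1.44 ± 0.18 (SE, adjusted p = 0.000386), and Cd8a 2.42-fold higher, 1.27 ± 0.17 (SE, adjusted p = 0.000541), on the log2 scale. Cd5 was 3.29-fold lower, with a log2 difference of -1.72 ± 0.22 (SE, adjusted p = 0.000397).

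The other members did not pass the test in that comparison. Cd3g had a log2 difference of 0.79 ± 0.34 (SE, adjusted p = 0.193), Cd3d of -0.53 ± 0.42 (SE, adjusted p = 0.534), Cd8b1 of -0.41 ± 0.21 (SE, adjusted p = 0.263) and Cd247 of 0.10 ± 0.17 (SE, adjusted p = 0.813). The libraries of the groups did not overlap for 9 of the 10 genes, all but Cd247, against 28.7% of all genes. The median log2 difference of the 10 genes was 1.03, beside -0.04 over all genes tested. Without OT-I replicates 2 and 3 and SV40-I replicate 2, the libraries rich in hepatocyte transcripts, a lone OT-I library remained, assumed to vary like the others; Trac and Cd5 were still called. The log2 differences of the others stayed close to those with all libraries, without passing the test: 1.40 for Cd3e (adjusted p = 0.0688), 1.27 for Cd8a (adjusted p = 0.0905), 3.03 for Trbc2 (adjusted p = 0.109) and 1.31 for Trbc1 (0.457). The call of Trbc1 also ended without any 1 of the OT-I replicates 1, 2 and 3 (adjusted p of 0.0632, 0.0844 and 0.0655) and without SV40-I replicate 2 or 3 (0.0527 and 0.0519). In bulk samples, fewer cells of a type and less RNA per cell cannot be told apart.

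Both groups of days 20 to 21 were also set against naive SV40-I cells. These comparisons, and those of days 8 to 9 with naive cells, share the same 3 naive libraries. In SV40-I cells, Trac rose 1.91-fold, by 0.94 ± 0.26 (SE, adjusted p = 0.0239) on the log2 scale, and Cd3e 1.97-fold, by 0.98 ± 0.18 (SE, adjusted p = 0.00245). Cd8b1 was 2.14-fold lower, -1.10 ± 0.21 (SE, adjusted p = 0.00264) in log2, and Cd247 1.65-fold lower, -0.72 ± 0.17 (SE, adjusted p = 0.00976). These were 4 called genes of 10, where 18% of all genes were called, 11.1% higher and 6.86% lower. Groups did not overlap for 6 of 10 genes, against 38% of all genes. Cd3d, at -1.27 ± 0.43 (SE, adjusted p = 0.0567), lay just outside the threshold and was called by DESeq2 with an adjusted p of 0.0171. Its sign turned with the ribosomal protein level as a covariate, to 0.37 in log2, not called.

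Calls in SV40-I cells of days 20 to 21 against naive cells depended on the libraries to different degrees. Trac was no longer called without naive replicate 1 or 3 (adjusted p of 0.0936 and 0.0624), without SV40-I replicate 2 or 3 (0.0633 and 0.068), or without the hepatocyte-rich libraries (0.0987). With the ribosomal protein level as a covariate, Cd8b1 stood at -0.44 in log2 (adjusted p = 0.0874) and Cd247 was not called (0.174), while Trac stood at 1.59, called, and Trbc1, Trbc2 and Cd3g were called higher, at 1.44, 1.67 and 1.27 in log2. Naive cells had a higher ribosomal protein share than SV40-I cells of days 20 to 21 in every library. With the hepatocyte level as a covariate, Trac stood at 1.08 in log2 (adjusted p = 0.053) and Cd247 at -0.54 (0.115), neither called. Cd3e was called under every alternative tried.

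In OT-I cells of days 20 to 21, Trbc2 and Trac were lower than in naive SV40-I cells. Trbc2 was 7.72-fold lower, -2.95 ± 0.43 (SE, adjusted p = 0.000897) on the log2 scale, and Trac 3.11-fold lower, -1.64 ± 0.26 (SE, adjusted p = 0.00165). Cd8a stood at -0.88 ± 0.17 (SE, adjusted p = 0.00648) and Cd247 at -0.82 ± 0.17 (SE, adjusted p = 0.00917) in log2. Cd5 rose 2.95-fold, by 1.56 ± 0.22 (SE, adjusted p = 0.00065). These 5 of 10 called genes, 4 lower and 1 higher, stand beside 7.35% of all genes called, 2.29% lower and 5.06% higher. For all 10 genes the libraries did not overlap, against 28.4% of all genes. Without the hepatocyte-rich libraries only Cd5 was called, with a lone OT-I library left; in log2 Trac stood at -1.58 (adjusted p = 0.118), Trbc2 at -2.86 (0.095), Cd8a at -0.87 (0.212) and Cd247 at -0.62 (0.364). With all libraries kept and the hepatocyte level as a covariate, Trac stood at -1.45 (adjusted p = 0.0702), Cd8a at -0.81 (0.131) and Cd247 at -0.60 (0.229), none called. With the ribosomal protein covariate Trbc2 stood at -1.88 and was called, and Cd247 at -0.64 was not (0.0543).

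**Figure D4:**
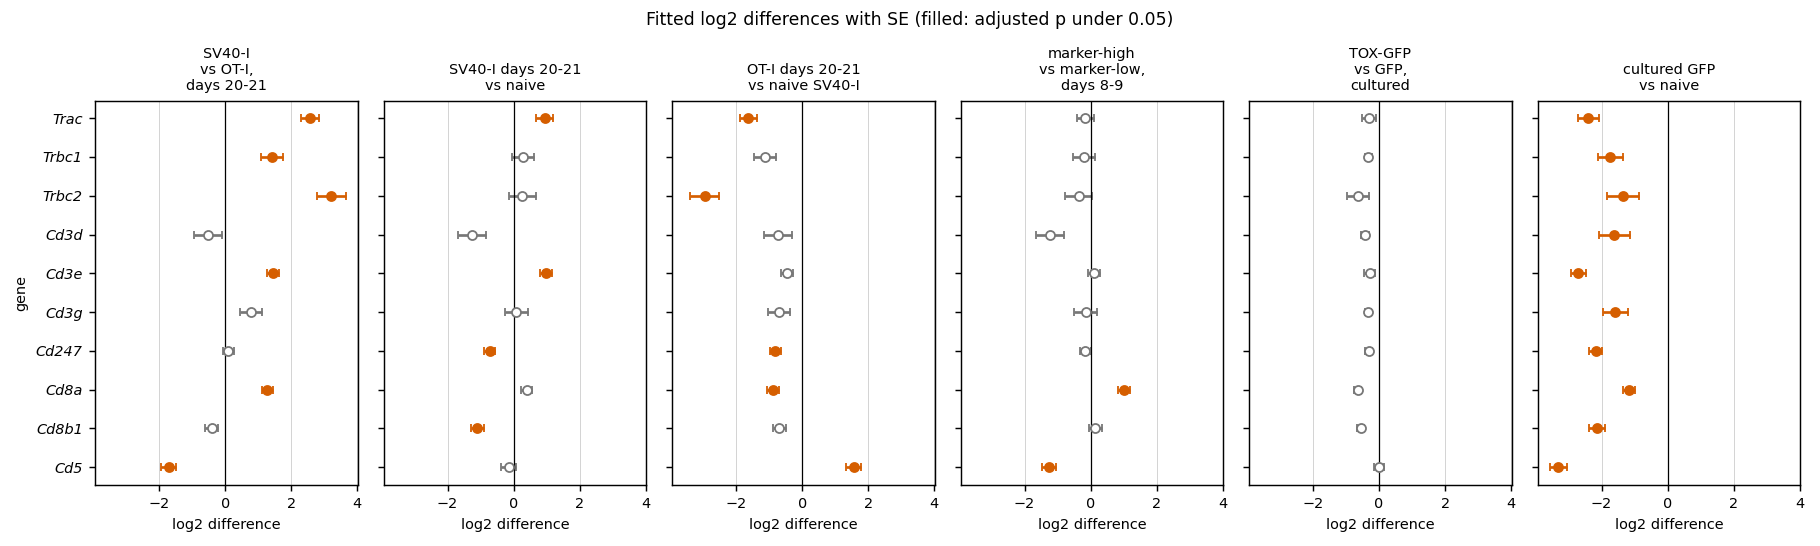
Fitted log2 difference of each gene in 6 comparisons (the group named first minus the other), with SE; filled points have an adjusted p under 0.05. Against OT-I cells, SV40-I cells of days 20 to 21 are higher in Trac, Trbc1, Trbc2, Cd3e and Cd8a and lower in Cd5, and cultured GFP cells are lower than naive cells in all 10 genes.

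At days 8 to 9, marker-high and marker-low cells differed in 2 of the 10 genes, Cd8a and Cd5, while 1.19% of all genes were called, 0.475% higher and 0.719% lower in marker-high cells. Cd8a was 2.02-fold higher in marker-high cells, a log2 difference of 1.01 ± 0.17 (SE, adjusted p = 0.0159). Cd5 was 2.40-fold lower, -1.26 ± 0.22 (SE, adjusted p = 0.017) in log2. For these 2 genes the libraries did not overlap, against 16.3% of all genes. Cd3d, at -1.23 ± 0.43 (SE, adjusted p = 0.25), was the next in size, and the receptor segments lay between -0.358 and -0.158 in log2 without passing the test (adjusted p from 0.843 to 0.913). Marker-low replicate 2 gave the lowest value of its group for every member. Without it, Cd8a stood at 0.88 (adjusted p = 0.0455), Cd5 at -1.40 (0.0308) and Cd3d at -1.59 (0.0659) in log2. The receptor segments then stood at -0.71 (Trbc2), -0.55 (Trbc1) and -0.44 (Trac) in log2, still not called.

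The calls of days 8 to 9 lay near the threshold. Without marker-low replicate 3 neither gene was called (adjusted p of 0.0682 for Cd8a and 0.0688 for Cd5), and Cd5 was not called without marker-low replicate 1 (0.0526) or marker-high replicate 2 (0.0671). In a fit of these groups alone both were lost (0.162 and 0.148). Macrophage transcripts were high in all marker-high libraries and in marker-low replicate 2, and lower in marker-low replicates 1 and 3 (2112 and 770 CPM). Both genes were called with the macrophage level as a covariate. Apart from marker-low replicate 2 that level runs with the gate, so the covariate cannot separate them. The part of macrophage transcripts in these calls was not tested.

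Against naive cells, both day 8 to 9 groups were lower in Cd8b1 and Cd247. Marker-high cells were 3.27-fold lower in Cd8b1, -1.71 ± 0.21 (SE, adjusted p = 0.000116) on the log2 scale, and also lower in Cd3d, -1.74 ± 0.43 (SE, adjusted p = 0.0123), and Cd247, -1.05 ± 0.17 (SE, adjusted p = 0.000765). These were 3 of 10 genes, with 23.4% of all genes called, 14.3% higher and 9.1% lower; 5 of 10 did not overlap, against 45.4%. Marker-low cells were 3.62-fold lower in Cd8b1, -1.85 ± 0.21 (SE, adjusted p = 0.000106), lower in Cd8a, -1.27 ± 0.17 (SE, adjusted p = 0.000371), and Cd247, -0.90 ± 0.17 (SE, adjusted p = 0.00363), and 2.72-fold higher in Cd5, 1.45 ± 0.22 (SE, adjusted p = 0.000889). These were 4 of 10 genes, with 16.8% of all genes called, 10.6% higher and 6.21% lower; 5 of 10 did not overlap, against 37.1%. With the macrophage level as a covariate Cd247 was called in neither group (adjusted p of 0.112 and 0.106), nor Cd3d in marker-high cells (0.304), which also lost its call without naive replicate 2 (0.0532); with the ribosomal protein covariate Cd3d stood at -0.63 in log2 and was called.

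From marker-high cells of days 8 to 9 to SV40-I cells of days 20 to 21, Cd3e was 2.52-fold higher, 1.33 ± 0.18 (SE, adjusted p = 0.00141) on the log2 scale. Cd8a, at 0.66 ± 0.17 (SE, adjusted p = 0.043), passed the threshold narrowly and kept its call in 8 of 18 alternatives. These 2 of 10 genes stand beside 5.33% of all genes called, 1.76% higher and 3.57% lower, and 7 of 10 genes did not overlap, against 27.1%. Trac, at 0.93 ± 0.26 (SE, adjusted p = 0.0574), was called by DESeq2 with an adjusted p of 0.00748. With the macrophage covariate Cd8a stood at 0.33 in log2, not called. Without SV40-I replicates 1, 2 or 3, in turn, the adjusted p of Cd8a was 0.139, 0.079 and 0.0562, and without marker-high replicate 1 or 2 it was 0.174 and 0.188. The groups differ in time and in gate, and whether they differ in genotype is not known. These cannot be told apart.

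In culture, every member had a lower fitted level with TOX-GFP than with GFP alone, but none passed the test. The smallest p-values were those of the coreceptor chains. Cd8a held 1116 and 1005 CPM with TOX-GFP and 1529 and 1692 CPM with GFP, a log2 difference of -0.65 ± 0.11 (SE, adjusted p = 0.215). Cd8b1 held 1144 and 1029 against 1528 and 1549.9 CPM, -0.55 ± 0.11 (SE, adjusted p = 0.216) in log2. The libraries did not overlap for these genes, nor for Trbc1, Cd3d, Cd3g and Cd247, 6 of 10 against 47.1% of all genes. Cd5, at -0.02 ± 0.15 (SE, adjusted p = 0.98), held 22.9 and 25.4 against 23.9 and 23.4 CPM and overlapped. edgeR called 0 of 14614 genes (0%) in this comparison of 2 against 2 libraries; 1906 genes (13%) had an unadjusted p under 0.05, 6 of the members among them.

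DESeq2 called 418 genes higher and 142 lower with TOX-GFP, among them Cd8a (adjusted p = 0.000782) and Cd8b1 (0.00513). Leaving out a GFP library leaves a lone one, assumed to vary like the TOX-GFP libraries. Without GFP replicate 2 edgeR called 1021 genes higher and 379 lower of 15751, and 5 members lower, Cd8a, Cd8b1, Cd3d, Cd3e and Cd3g (adjusted p from 0.0291 to 0.0439). Without GFP replicate 1 it called 177 genes higher and 40 lower of 15706, and of the members Cd8a alone (0.032). With all 4 libraries, the median log2 difference of the 10 genes was -0.33, beside 0.01 over all genes tested.

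Cultured GFP cells were lower than naive SV40-I cells in all 10 genes, where 15% of all 18608 genes were called lower, 17.6% higher and 32.6% in either direction, and no library overlapped for any of the 10, against 60.2% of all genes. Cd5 was 9.93-fold lower, -3.31 ± 0.26 (SE, adjusted p = 5.88e-07) on the log2 scale. Cd3e was 6.52-fold lower, -2.70 ± 0.23 (SE, adjusted p = 1.02e-06), and Trac 5.28-fold lower, -2.40 ± 0.32 (SE, adjusted p = 4.72e-05). Cd247 and Cd8b1 followed at -2.18 ± 0.20 (SE, adjusted p = 1.51e-06) and -2.14 ± 0.24 (SE, adjusted p = 9.54e-06), and the smallest of the log2 differences, Cd8a, stood at -1.17 ± 0.19 (SE, adjusted p = 0.000187). Trbc2, at -1.34 ± 0.48 (SE, adjusted p = 0.0448), was near the threshold, with an adjusted p of 0.0594 with a replicate block. It stood at -0.70 in log2 without naive replicate 2 (adjusted p = 0.228), -0.86 without GFP replicate 1 (0.381) and -1.77 without GFP replicate 2 (0.0739). Cd3d (-1.61 ± 0.47 (SE, adjusted p = 0.015)) lost its call without naive replicate 2 (0.0601), GFP replicate 1 (0.104) or GFP replicate 2 (0.133), and Cd3g (-1.58 ± 0.38 (SE, adjusted p = 0.00477)) without GFP replicate 1 (0.0559) or 2 (0.0629). Stimulation, transduction and culture differ together here and cannot be told apart.

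Lists of genes around the receptor, also chosen with earlier results of these data known, were read beside the members. They held 40 names in 6 roles, of which 37 had a row. Among other surface molecules of the complex and its contacts, 6 genes were tested and 3 were lower in SV40-I than in OT-I cells at days 20 to 21, none higher. They were Cd6, a relative of Cd5 (-2.87 ± 0.49 (SE, adjusted p = 0.0025) in log2), Cd2, an adhesion receptor (-1.87 ± 0.37 (SE, adjusted p = 0.00625)), and the costimulatory receptor Cd28 (-3.95 ± 0.82 (SE, adjusted p = 0.00901)). Of 5 transmembrane adaptors, 3 were lower: Pag1 (-6.35 ± 0.73 (SE, adjusted p = 0.000137), at 0.0565 against 4.90 CPM), Sit1 (-1.53 ± 0.28 (SE, adjusted p = 0.00374)) and Lat, the adaptor that ZAP70 phosphorylates (-1.28 ± 0.32 (SE, adjusted p = 0.025)). Of 7 receptor-proximal kinases and phosphatases, 1 was called, Zap70, the kinase that binds the phosphorylated zeta chain, higher by 1.37 ± 0.18 (SE, adjusted p = 0.000516). Of 6 genes that lower the receptor or its signals, 3 were higher: Sla2, an adaptor (1.34 ± 0.23 (SE, adjusted p = 0.00242)), Ubash3b, a phosphatase (1.58 ± 0.32 (SE, adjusted p = 0.00758)), and Cblb, a ubiquitin ligase (1.02 ± 0.29 (SE, adjusted p = 0.0433)). Of 11 transcription factors known to act at these loci, 4 were lower, among them Lef1 (1.56, 0.341 and 3.00 against 377, 329 and 316 CPM), Tcf7 (2.32, 2.52 and 1.07 against 339.6, 416 and 282 CPM) and Satb1 (-6.21 ± 0.91 (SE, adjusted p = 0.000915)). Of the other receptor chains 1 gene, Trdc, was tested and not called.

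The same lists were read in SV40-I cells of days 20 to 21 against naive cells, a comparison that shares its SV40-I libraries with the one against OT-I cells. There 4 of 6 surface genes were lower, led by Cd2 (-1.74 ± 0.37 (SE, adjusted p = 0.00536)), Cd28 (-3.52 ± 0.81 (SE, adjusted p = 0.00895)) and Cd6 (-1.70 ± 0.47 (SE, adjusted p = 0.0237)); of 5 adaptors 4 were lower, Pag1 (-7.22 ± 0.75 (SE, adjusted p = 3.24e-05)) and Sit1 (-2.19 ± 0.28 (SE, adjusted p = 0.000171)) among them, and Lax1 was higher (1.64 ± 0.16 (SE, adjusted p = 1.78e-05)). Pag1 was at most 0.0758 CPM in SV40-I libraries of days 20 to 21, near a limit of 3 counts. The sizes of its differences in those cells, here and below, are thus uncertain. Of the kinases 3 were higher, with Zap70 (1.21 ± 0.18 (SE, adjusted p = 0.000558)) and Fyn (1.32 ± 0.25 (SE, adjusted p = 0.00251)). Of the downregulation genes 3 of 6 were higher, Ubash3b (5.53 ± 0.38 (SE, adjusted p = 1.36e-06)), Cblb (1.91 ± 0.30 (SE, adjusted p = 0.00067)) and Sla (1.00 ± 0.20 (SE, adjusted p = 0.0041)), and of 11 transcription factors 5 were lower, led by Lef1, Satb1 and Tcf7, and 1 higher. In OT-I cells against naive cells no surface gene was called, and the called genes were Lax1 (1.55 ± 0.16 (SE, adjusted p = 4.63e-05)), Fyn (1.66 ± 0.25 (SE, adjusted p = 0.00106)), Ptpn6 (0.92 ± 0.25 (SE, adjusted p = 0.0455)), Ubash3b (3.95 ± 0.36 (SE, adjusted p = 1.76e-05)), Sla (1.49 ± 0.21 (SE, adjusted p = 0.000538)) and Runx3 (1.64 ± 0.41 (SE, adjusted p = 0.0281)), all higher.

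Between marker-high and marker-low cells, 2 of the listed genes were called: Sla2 was higher by 1.19 ± 0.23 (SE, adjusted p = 0.0239) and Satb1 lower, at -4.61 ± 0.83 (SE, adjusted p = 0.0203) in log2. Against naive cells, both groups were lower in Trdc, the delta constant segment (-3.16 ± 0.62 (SE, adjusted p = 0.00326) and -4.63 ± 0.67 (SE, adjusted p = 0.000592) for marker-high and marker-low), and higher in Ubash3b (5.43 ± 0.38 (SE, adjusted p = 1.52e-06) and 4.92 ± 0.37 (SE, adjusted p = 5.05e-06)) and Fyn (1.05 ± 0.25 (SE, adjusted p = 0.00919) and 1.28 ± 0.25 (SE, adjusted p = 0.00441)). Marker-high cells were lower in 3 of 6 surface genes and 4 of 5 adaptors, and marker-low cells in 1 of 6, Ptprc (-2.83 ± 0.59 (SE, adjusted p = 0.00679)), and 3 of 5; whether these counts differ was not tested. In marker-high cells the surface genes were Cd2 (-1.75 ± 0.37 (SE, adjusted p = 0.0047)), Ptprc (-2.31 ± 0.58 (SE, adjusted p = 0.0125)) and Cd6 (-1.39 ± 0.46 (SE, adjusted p = 0.0458)), and the adaptors with the smallest p were Sit1 (-2.76 ± 0.29 (SE, adjusted p = 3.27e-05)), Lat (-2.01 ± 0.33 (SE, adjusted p = 0.000865)) and, higher, Lax1 (0.73 ± 0.16 (SE, adjusted p = 0.00503)). Lck was lower there (-0.73 ± 0.18 (SE, adjusted p = 0.0114)), Sla (1.12 ± 0.20 (SE, adjusted p = 0.00194)) and Cblb (3.04-fold, adjusted p = 0.00197) were higher, and Satb1 (-6.98 ± 0.92 (SE, adjusted p = 0.000194)), Lef1 (-5.41 ± 0.88 (SE, adjusted p = 0.000879)) and Bcl11b (-2.92 ± 0.56 (SE, adjusted p = 0.00276)) led the lower transcription factors. In marker-low cells Lax1 was higher (1.23 ± 0.16 (SE, adjusted p = 0.000223)), as were the phosphatase Ptpn6 (0.91 ± 0.25 (SE, adjusted p = 0.0282)) and Sla (1.16 ± 0.20 (SE, adjusted p = 0.00242)). Lower were Sit1 (-2.11 ± 0.28 (SE, adjusted p = 0.000336)), Pag1 (-2.05 ± 0.57 (SE, adjusted p = 0.0277)), Sla2 (-1.31 ± 0.23 (SE, adjusted p = 0.00215)) and the transcription factors Ets1 (-1.03 ± 0.24 (SE, adjusted p = 0.0136)), Bcl11b (-2.22 ± 0.54 (SE, adjusted p = 0.0157)) and Satb1 (-2.37 ± 0.74 (SE, adjusted p = 0.043)). From marker-high cells to SV40-I cells of days 20 to 21, Zap70 (0.84 ± 0.18 (SE, adjusted p = 0.0182)), Lck (0.69 ± 0.18 (SE, adjusted p = 0.043)), Ubash3a (0.84 ± 0.15 (SE, adjusted p = 0.00556)) and Lax1 (0.91 ± 0.16 (SE, adjusted p = 0.00492)) were higher, and Pag1 (-4.84 ± 0.69 (SE, adjusted p = 0.00149)) and 3 of 11 transcription factors, Lef1 (-4.33 ± 0.85 (SE, adjusted p = 0.0118)), Tcf7 (-4.87 ± 0.96 (SE, adjusted p = 0.0119)) and Myb (-7.57 ± 1.61 (SE, adjusted p = 0.0146)), were lower.

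No listed gene was called between TOX-GFP and GFP cells. In cultured GFP cells against naive cells, the kinase list was lower in 4 of 7 genes and higher in 1, with Lck, the kinase carried by CD8, at -2.03 ± 0.20 (SE, adjusted p = 3.82e-06), Csk at -1.69 ± 0.18 (SE, adjusted p = 7.12e-06) and Fyn at 2.36 ± 0.26 (SE, adjusted p = 1.02e-05). Of 6 surface genes Cd6 alone was called (-3.30 ± 0.55 (SE, adjusted p = 0.000277)). Adaptors were lower in 3 of 5 genes, Lax1 (-2.11 ± 0.18 (SE, adjusted p = 8.45e-07)), Sit1 (-2.61 ± 0.31 (SE, adjusted p = 1.9e-05)) and Lat (-1.76 ± 0.35 (SE, adjusted p = 0.00134)), and higher in 1. Of the downregulation genes 3 were lower and 2 higher, with Ubash3a at -1.86 ± 0.16 (SE, adjusted p = 1.28e-06), Sla2 at -1.76 ± 0.26 (SE, adjusted p = 0.000113) and the ubiquitin ligase Cbl at 2.29 ± 0.29 (SE, adjusted p = 2.41e-05). Of 11 transcription factors 6 were higher, led by Tcf3 (4.01 ± 0.41 (SE, adjusted p = 5.38e-06)), Runx3 (3.72 ± 0.42 (SE, adjusted p = 1.1e-05)) and Ets1 (1.20 ± 0.25 (SE, adjusted p = 0.00187)), and 2 lower.

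Likeness in pattern was measured as the root mean square difference of centred log2(CPM + 1) over the 19 libraries, among genes with a mean of at least 50 CPM. For Cd8a, whose own values spread by a root mean square of 0.71, the nearest were Sla2 (0.30), Snap47 (0.33) and Lancl1 (0.35). Cd3e, with a spread of 1.23, was nearest to Bin1 (0.34), Itm2c (0.37) and Gpsm3 (0.37). For Trac, with a spread of 1.26, the nearest were further off, Baiap2 (0.58), Rnf122 (0.61) and Suox (0.61). Cd5, with a spread of 1.69, was nearest to Tagap (0.65), Phf11b (0.69) and Rin3 (0.71). All points share depth and scaling between genes, and likeness over these libraries is a description.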

How the data were processed

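The authors deposited 1 table of raw whole-number counts per library, made with featureCounts 1.6.2 in paired mode on GENCODE M17 and GRCm38 p6, summed by gene name with no strand option, per the file headers. RNA had been amplified with SMART-Seq v4, per the labels, so counts carry no molecular identifiers; the limit of 3 counts below covers counting error only, while SDs and SEs include the spread between libraries. FastQC, STAR and DESeq2 are named without versions in the submitters' processing notes. The deposited tables also give each gene's exon length in bases (a further column of the authors, used for CPM per kb).

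From these counts CPM were computed with TMM factors over all 19 libraries (a limit of 3 counts is 0.0478 to 0.0822 CPM). Tests used edgeR 4.0.16 in R 4.3.3 (TMM, filterByExpr, robust quasi-likelihood) on all genes: 16404 in the 15 libraries from mice, 14614 in the 4 cultured libraries and 18608 in all 19 for cultured against naive cells. Adjusted p-values are Benjamini-Hochberg over all genes, called under 0.05; SEs were worked back from the F statistic. DESeq2 1.42.0, other scalings, filters, covariates and left-out libraries were alternatives; the macrophage and ribosomal protein covariates were added after the data had been seen. Ratios between genes were compared with exact permutation tests. Counts were also simulated, with the same spread setting for every gene, unlike the measured genes. In the SV40-I against OT-I design, 44 of 100 genes changed by 1 on the log2 scale and 100 of 100 changed by 2 were recovered. In the TOX-GFP against GFP design these were 30 of 100 and 100 of 100.

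Within groups, pairs of libraries were further apart than sampling noise allows (chi-square over its degrees of freedom between 29.9 and 485), and each was kept. Replicate numbers were read as a possible pairing where 3 pairs all had correlated deviations over 0.1. Marker-high and naive cells met this rule (0.122, 0.174 and 0.207). The 2 TOX-GFP and GFP pairs were at 0.124 each, and no other comparison met it. The reported fits used group terms alone, for marker-high against naive cells too, and the replicate block was an alternative. The members and gene lists were chosen with earlier results of these data known. All 10 members are described in every group; of each list, up to 3 called genes with the smallest p are named per comparison, and for Trac, Cd3e, Cd8a and Cd5 the 3 genes most alike in pattern outside the receptor genes. List names Trgc1, Trgc2 and Trgc4 match no row, and the result of 1 other listed gene is not reported here. Sequences are from GENCODE M21 (GRCm38) and RefSeq (GRCm38.p6), and coordinates are those of the deposited tables.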

Additional observations from a re-analysis of the deposited data

How the results depend on the processing

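Of 36 calls of members, 16 were kept under every alternative run, and of 1460 alternative values 1 was reversed: Trbc1 in marker-high against naive cells, 0.81 in log2 with the ribosomal protein covariate (adjusted p = 0.0229), from -0.00277; the cause was not tested. Another 49 values changed sign while called neither as reported nor in that alternative, the largest being Cd3d in SV40-I of days 20 to 21 against naive cells, from -1.27 to 0.37 with the ribosomal protein covariate. The number of members called moved by over 1.5 times in these cases, with causes not tested except where fewer libraries were left. SV40-I against OT-I cells went from 6 to 2 without the 3 hepatocyte-rich libraries, which leaves fewer libraries. Marker-high against marker-low went from 2 to 0 with only these groups fitted. Over all genes the calls there went from 78 higher and 118 lower to 1 and 3. SV40-I of days 20 to 21 against naive went from 4 to 2 with the hepatocyte covariate; OT-I against naive went from 5 to 2 with it and to 1 without the 3 libraries, and, a smaller move, to 7 with DESeq2 or only these groups. With the hepatocyte covariate, calls over all genes went from 1829 higher and 1125 lower to 1246 and 884 for SV40-I against naive cells. For OT-I against naive cells they went from 830 and 376 to 427 and 168 with it, and to 1585 and 769 with DESeq2. Marker-high against naive went from 3 to 1 with the macrophage covariate, while all genes called went from 2349 higher and 1492 lower to 862 and 595. Smaller moves were 3 to 4 there with DESeq2, RLE scaling, library totals or a stricter filter, 4 to 5 for SV40-I of days 20 to 21 against naive with DESeq2, and 4 to 3 for marker-low against naive with the macrophage covariate, among others. SV40-I of days 20 to 21 against marker-high went from 2 to 5 with DESeq2, to 7 with the ribosomal protein covariate, and to 1 without a filter, with the hepatocyte or macrophage covariate, or without the 3 libraries. Over all genes, calls of SV40-I of days 20 to 21 against marker-high went from 289 higher and 585 lower to 969 and 1230 with DESeq2. They went to 467 and 671 with the ribosomal protein covariate and to 44 and 121 with the macrophage covariate. TOX-GFP against GFP went from 0 to 2 with DESeq2, and all genes called went from 0 to 418 higher and 142 lower. Leaving out 1 library gave 5 to 6 members for SV40-I against OT-I, 0 to 2 members for marker-high against marker-low, 3 to 4 members for SV40-I against naive, 5 to 5 members for OT-I against naive, 2 to 3 members for marker-high against naive, 4 to 5 members for marker-low against naive, 1 to 2 members for SV40-I against marker-high, 0 to 5 members for TOX-GFP against GFP and 7 to 10 members for cultured GFP against naive.

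In the replicate block, libraries of the same number share a term. It lowered the count of cultured GFP against naive cells from 10 to 9 (Trbc2, adjusted p = 0.0594). No other call changed, and the reported fits did not use the block. Marker-high against naive cells alone met the rule for a possible pairing, the cultured groups having 2 pairs (0.124 each). Depth did not limit the members, whose lowest count in any library was 1312. The count of libraries does, with 2 or 3 per group. In simulated counts of the SV40-I against OT-I design, changes of 1 on the log2 scale were recovered for 44 of 100 genes. Those counts had the same spread setting for every gene, so the rate may not hold for the members. The Trbc1 share differed by -23.1 to -21.9 and the Cd8b1 share by -14.0 to -9.61 percentage points when 1 library was left out; as log2 ratios of the genes the differences were -1.79 and -0.82.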

Other observations

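The constant segments of the gamma chain were added after the count tables had been read, under the names given there, because the listed names Trgc1, Trgc2 and Trgc4 matched no row. Tcrg-C1 held 93.5 ± 4.89 CPM in cultured TOX-GFP and 59.1 ± 5.38 CPM in cultured GFP cells (SD, n = 2 each). In marker-high cells it held 25.1 ± 25.5 CPM, with libraries spread up to 54.4 CPM, and in OT-I cells 1.02 ± 0.559 CPM (SD, n = 3 each). Tcrg-C2 stood at 18.9 ± 6.01 CPM in SV40-I cells of days 20 to 21 and 1.04 ± 0.548 CPM in naive cells, and Tcrg-C4 at 41.4 ± 11.2 CPM in TOX-GFP cells (SD, n = 3, 3 and 2). The delta segment Trdc ran otherwise, at 275, 323 and 292 CPM in naive and 293, 309 and 271 CPM in OT-I libraries against 12.3, 12.3 and 10.4 CPM in marker-low libraries. Ptcra, the surrogate alpha chain of thymocytes, did not exceed 0.575 CPM in any library. The sequences of the gamma segments were not compared, so how far their counts can be told apart is not known. They were described here by their levels alone, each in some of the groups only and Tcrg-C3 in none. These values thus do not set any group apart.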
